A study of Mus musculus with 2 samples.

Results

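The MHC class II genes examined here were H2-Aa, H2-Ab1, H2-Eb1, Cd74, Ciita, H2-DMa and H2-DMb1, 7 of the 32285 genes listed in the files. They were taken by symbol and not by a rule on measured values, although earlier results of these data were known. Their RNA was followed over the cell types of the mouse lung. Both samples were 10x Genomics 3' single-cell RNA-seq libraries of lung cells from untreated wild type C57BL/6 male mice aged 3 months. The cells had been sorted by flow cytometry as live single cells that fluoresce under ultraviolet light (UV-positive), a property of stored retinoids, so every level below describes cells that passed this gate. There was 1 condition and no control group, and the question addressed was how class II RNA differs between the cell types of the sort. How many mice went into each library is not given in the sources used here. The tests set group differences against their variation between 2 libraries, with a shift common to all groups of a library removed. That variation may be technical.

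MHC class II molecules present peptides from endocytosed proteins to CD4+ T cells. H2-Aa and H2-Ab1 encode the alpha and beta chains of I-A, the class II molecule of C57BL/6 mice, and H2-Eb1 encodes the beta chain of I-E. Cd74, the invariant chain, occupies the peptide groove and guides the molecule to endosomes, where H2-DM, a dimer of H2-DMa with an H2-DMb chain, exchanges the last invariant chain fragment for peptide. Ciita is the transactivator that binds the factors assembled on the X and Y boxes of class II promoters. Dendritic cells, macrophages and B cells are the professional presenting cells, and alveolar type 2 (AT2) cells are known to carry class II in the lung without inflammation.

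Promoter stretches are printed because Ciita is known to act through the X and Y boxes of class II promoters and the levels of Ciita and of these genes are set side by side below. RefSeq promoter windows (GRCm38.p6) matched 4 of the 7 members: H2-Aa, H2-Eb1, H2-DMa and H2-DMb1. The stretches below run from 140 to 21 bases before the annotated start, 5′ to 3′ on the gene's strand. Capitals mark an X box core (AACNGATG) or a Y box core (TGATTGG). Both motifs were chosen after the windows had been seen. The last stretch is H2-DMb2, the neighbouring paralog of H2-DMb1, on which a result for B cells turns.
H2-Aa, chr17:34287844-34287963, minus strand: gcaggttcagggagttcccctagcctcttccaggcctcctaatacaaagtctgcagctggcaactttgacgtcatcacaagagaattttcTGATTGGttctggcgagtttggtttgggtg
H2-Eb1, chr17:34305727-34305846, plus strand: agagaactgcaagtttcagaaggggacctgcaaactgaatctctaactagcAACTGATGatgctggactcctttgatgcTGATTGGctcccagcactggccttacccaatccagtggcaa
H2-DMb1, chr17:34153051-34153170, plus strand: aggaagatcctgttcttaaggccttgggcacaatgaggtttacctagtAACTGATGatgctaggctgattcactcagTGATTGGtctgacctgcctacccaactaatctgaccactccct
H2-DMb2, chr17:34145109-34145228, plus strand: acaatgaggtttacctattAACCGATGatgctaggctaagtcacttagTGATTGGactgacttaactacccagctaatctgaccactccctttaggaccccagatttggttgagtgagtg

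In H2-Eb1 the X core started 28 bases before the Y core, and in H2-DMb1 and H2-DMb2 it started 29 bases before it. H2-Aa held the Y core alone, and neither of the 2 windows of H2-DMa held either motif. Those windows lie at chr17:34122692-34122811 and chr17:34125378-34125497, in a gene annotated from 34119541 to 34139101. Other starts of H2-DMa were not examined, so whether its promoter holds the motifs is not settled here. With both strands searched, 2.32% of the 32851 promoter windows held the X core and 7.82% held the Y core. The pair on 1 strand at 20 to 35 bases was found in 5 windows (0.0152%), those of H2-Eb1, H2-Eb2, H2-DMb1, H2-DMb2 and BC051142. A match of letters is a description and not a binding site.

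After cells with under 200 detected genes or over 10% mitochondrial UMIs (unique molecular identifiers, 1 per captured transcript) were left out, 9634 cells of library 1 and 9988 of library 2 remained, with medians of 4480 and 7577.5 UMIs. The libraries held 48762735 and 93970185 UMIs in all, and 23 barcode sequences occurred in both. A cell was placed in a group where at least 3 UMIs of exactly 1 gate were seen: Col1a2, Mfap4 and Pdgfra for stromal, Cdh5, Pecam1 and Egfl7 for endothelial, Epcam, Cdh1 and Lamp3 for epithelial, and Ptprc, Laptm5 and Cd52 for immune. Immune cells with a Cd79a UMI were called B, those with at least 10 C1q UMIs macrophage, and the rest other immune. Libraries 1 and 2 gave 7645 and 7438 stromal, 56 and 360 endothelial, 930 and 101 epithelial, 28 and 62 B, 43 and 21 macrophage, and 195 and 251 other immune cells. Cells that passed several gates were left out of the groups. They were 420 in library 1 and 1640 in library 2, and they held 33.6% and 77.7% of the Cd74 UMIs of the 2 libraries, so most class II RNA of library 2 lay outside the groups compared.

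The gates were checked against markers they had not used. The 6 epithelial markers (Sftpc, Sftpb, Krt8, Krt18, Cldn18 and Nkx2-1) summed to 254402 and 206801 UMIs per 1000000 UMIs (CPM) in epithelial cells and to between 83.9 and 807 CPM elsewhere. Of the B cell markers, Ms4a1 had 764 and 857 CPM in B cells and at most 0.0853 CPM elsewhere, and Pax5 187 and 185 CPM against at most 0.0171 CPM. Ighm was not limited to B cells, with 3184 and 1847 CPM there, 195 and 119 CPM in macrophages and 78.3 and 72.4 CPM in other immune cells. Cd79b had 1599 and 1276 CPM in B cells and 30.4 and 19.8 CPM in epithelial cells. The 5 endothelial markers reached 10800.3 and 9191 CPM in their own group and at most 26.4 CPM elsewhere, and the 6 stromal markers 4973 and 5643 CPM against at most 309 CPM. T cell markers summed to 111 and 576 CPM in other immune cells, to at most 0.234 CPM in stromal cells and to 0 in the remaining groups. Neutrophil markers (S100a8 and S100a9) reached 21208 and 6937 CPM in other immune cells and at most 4.87 CPM elsewhere. The macrophage list was also high outside its group, since Apoe alone gave stromal cells 5902 and 5548 CPM beside 22076 and 18024 CPM in macrophages.

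Among the 6 groups, class II RNA was lowest in stromal cells for all 7 members and highest in macrophages for all but Ciita, with endothelial and epithelial cells between them. The other immune group mixes cell types. Its dendritic cells, described below, had mean levels above those of macrophages for H2-Ab1, Cd74, Ciita, H2-DMa and H2-DMb1. For H2-Aa and H2-Eb1 the dendritic means lay below. Cd74 had 22.5 and 16.8 CPM in the stromal cells of libraries 1 and 2, 502 and 358 CPM in endothelial cells, and 3801 and 2880 CPM in epithelial cells. B cells had 13527 and 11527 CPM, other immune cells 10908 and 9709 CPM, and macrophages 34833 and 23862 CPM. The ranges of the 6 groups did not overlap, although those of B and other immune cells lay close together. H2-Ab1, the I-A beta chain, gave 5.89 and 6.07 CPM in stromal, 468 and 217 CPM in endothelial, 588 and 472 CPM in epithelial, 3299 and 2884 CPM in B, 3501 and 3721 CPM in other immune cells, and 11576 and 8676 CPM in macrophages. Its endothelial level in library 1 lay just under the epithelial level of library 2, and its B cell level in library 1 just under the other immune level of that library, so these neighbours in the order lay within or close to the spread of the libraries.

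**Figure D1:**
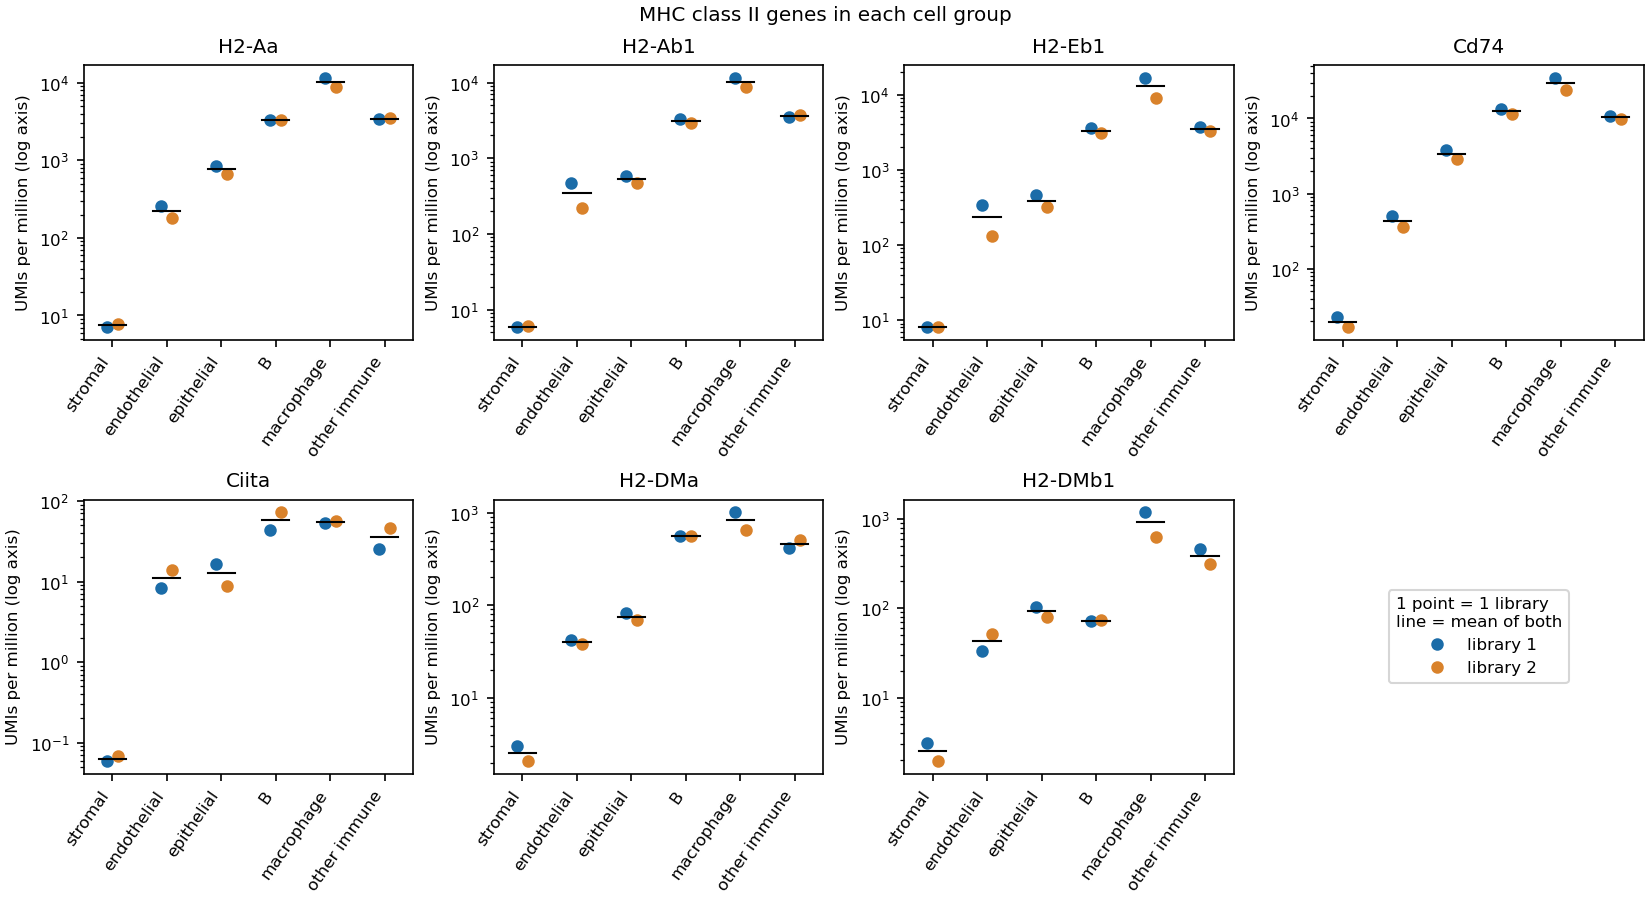
CPM (log axis) of each of the 7 genes in the 6 cell groups, 1 point per library with the mean as a line. Stromal cells lie lowest in every panel, macrophages lie highest for all genes but Ciita, and for H2-DMb1 the B cells (72.0 and 73.1) lie just under the epithelial cells (105 and 79.8).

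In epithelial cells all 7 members were higher than in stromal cells, and the fit called 19.2% of 10866 genes higher and 22.9% lower. The median log2 fold change of the members was 6.97, against -0.12 over all genes tested. Cd74 was 243-fold higher on the scaled counts of the fit, a log2 fold change of 7.93 ± 0.32 (SE; edgeR adjusted p = 4.1e-24). The fit rescales each sum (TMM factors of 0.702 and 0.808 for epithelial and 1.03 and 1.12 for stromal cells), so its folds differ from ratios of CPM. Ciita, the transactivator, had 144 and 12 UMIs in epithelial cells (16.6 and 8.79 CPM) and 2 and 4 UMIs in the far larger stromal sum, so that the fitted value rests on few stromal counts, a log2 fold change of 8.06 ± 0.54 (edgeR adjusted p = 3.6e-17). The H2-DM chains differed least: H2-DMa, at 81.7 and 68.8 CPM in epithelial and 2.99 and 2.06 CPM in stromal cells, gave a log2 fold change of 5.43 ± 0.33. The epithelial cells were almost wholly AT2 cells by the rule that Sftpc took at least 2% of UMIs: 930 of 930 in library 1 and 95 of 101 in library 2.

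Cd74 was found in nearly every epithelial cell, and the other members in fewer. A Cd74 UMI was found in 99.7% of epithelial cells of library 1 (exact binomial 95% interval 99.1 to 99.9) and 94.1% in library 2 (87.5 to 97.8), at medians of 9340.5 and 13627 UMIs per cell. The share in stromal cells was 6.27% and 9.29%, at medians of 4297 and 7083.5 UMIs. After each cell was thinned to 2000 UMIs, which kept 924 and 101 epithelial and 6867 and 7395 stromal cells, the epithelial shares were 99.0% and 91.1% and the stromal shares 3.23% and 2.85%. H2-Ab1 fell further on thinning, from 94.5% and 84.2% of epithelial cells to 64.7% and 49.5%. H2-DMa was seen in 49.4% and 52.5% of epithelial cells and H2-DMb1 in 55.4% and 57.4%. Ciita was seen in 13.2% and 10.9% of epithelial cells and 0.0262% and 0.0538% of stromal cells. These intervals cover counting error only.

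The 5 AT1 cells of library 2, marked by Ager, Rtkn2 and Akap5, had 3 Cd74 UMIs in all, in 1 cell, and no UMI of H2-Aa, H2-Ab1 or H2-Eb1. AT1 cells are the flat cells of gas exchange. With 5 cells the counts give no comparison with AT2 cells.

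The stromal level was low but not 0, and it was set beside markers of other cell types. As a share of the highest group, stromal Cd74 was 0.0646% and 0.0702%, C1qa 0.0119% and 0.0176%, Cd79a 0.00602% and 0.00817%, and the AT2 surfactant gene Sftpc 0.174% and 0.0591%. C1qa and Cd79a helped to define the macrophage and B groups, so their levels there are high by selection and they give no baseline. Among markers outside the gates, Cldn5 stood at 0.0216% and 0.0790%, Cd3d at 0.312% and 0.0431%, and Ms4a1 at 0 and 0.00995%. Stromal H2-DMa stood at 0.294% and 0.314% of the macrophage level. In stromal cells with no UMI of another gate Cd74 had 17.6 and 14.1 CPM, and in the 84 and 149 stromal cells with 1 or 2 immune gate UMIs it had 302 and 88.2 CPM. The single highest stromal cell held 24 Cd74 UMIs in library 1 and 49 in library 2. Whether these UMIs came from the stromal cells themselves was not tested.

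Endothelial cells also carried class II RNA. All 7 members were higher in endothelial than in stromal cells, where 13.1% of genes tested were called higher and 18.4% lower, with a median log2 fold change of 4.26 beside -0.22 over all genes. H2-Ab1 was 39.4-fold higher, at a log2 fold change of 5.30 ± 0.31 (edgeR adjusted p = 8.8e-19), and H2-Aa 21.6-fold, at 259 and 180 CPM in endothelial cells. Cd74, at 4.06 ± 0.27, and H2-DMa, at 3.69 ± 0.37, gave smaller log2 fold changes. Ciita rested on 1 UMI in the 56 endothelial cells of library 1 and 26 UMIs in the 360 of library 2, 8.37 and 14.1 CPM.

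Between the 2 parenchymal cell types, 6 of the 7 members were higher in epithelial cells, and 19.8% of all genes tested were called higher there and 18% lower. The difference was uneven over the members. Cd74 was 14.6-fold higher in epithelial cells (log2 fold change 3.87 ± 0.27, edgeR adjusted p = 3.5e-16) and H2-Aa 6.74-fold, whereas H2-Ab1 was 3.17-fold and H2-Eb1 3.48-fold higher. Ciita did not pass the test, with a log2 fold change of 0.96 ± 0.53 (edgeR adjusted p = 0.16). In library 1 its level was higher in epithelial cells (16.6 against 8.37 CPM) and in library 2 in endothelial cells (14.1 against 8.79 CPM).

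The ratio between members also varied with the cell type. Epithelial cells held 6.47 and 6.10 Cd74 UMIs per H2-Ab1 UMI. B cells held 4.10 and 3.997, macrophages 3.01 and 2.75, and endothelial cells 1.07 and 1.65. For the chains of I-A, H2-Aa UMIs per H2-Ab1 UMI were 1.46 and 1.43 in epithelial cells, 1.01 and 1.02 in macrophages, and 0.554 and 0.830 in endothelial cells. Of the groups given, epithelial cells were highest and endothelial cells lowest for both ratios in both libraries. Per 1000 H2-Ab1 UMIs, Ciita gave 28.3 and 18.6 in epithelial cells, 17.9 and 64.8 in endothelial cells, 13.1 and 25.3 in B cells, and 4.59 and 6.45 in macrophages. The endothelial values rest on 1 and 26 Ciita UMIs. The macrophage values rest on 9 and 8. Of these 4 groups macrophages were lowest in both libraries, while the other 3 overlapped. Low values were not limited to macrophages, with 5.15 and 10.9 in dendritic cells and 7.16 and 12.5 in all other immune cells. These ratios compare the same pair of genes over cell types and were not tested.

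**Figure D2:**
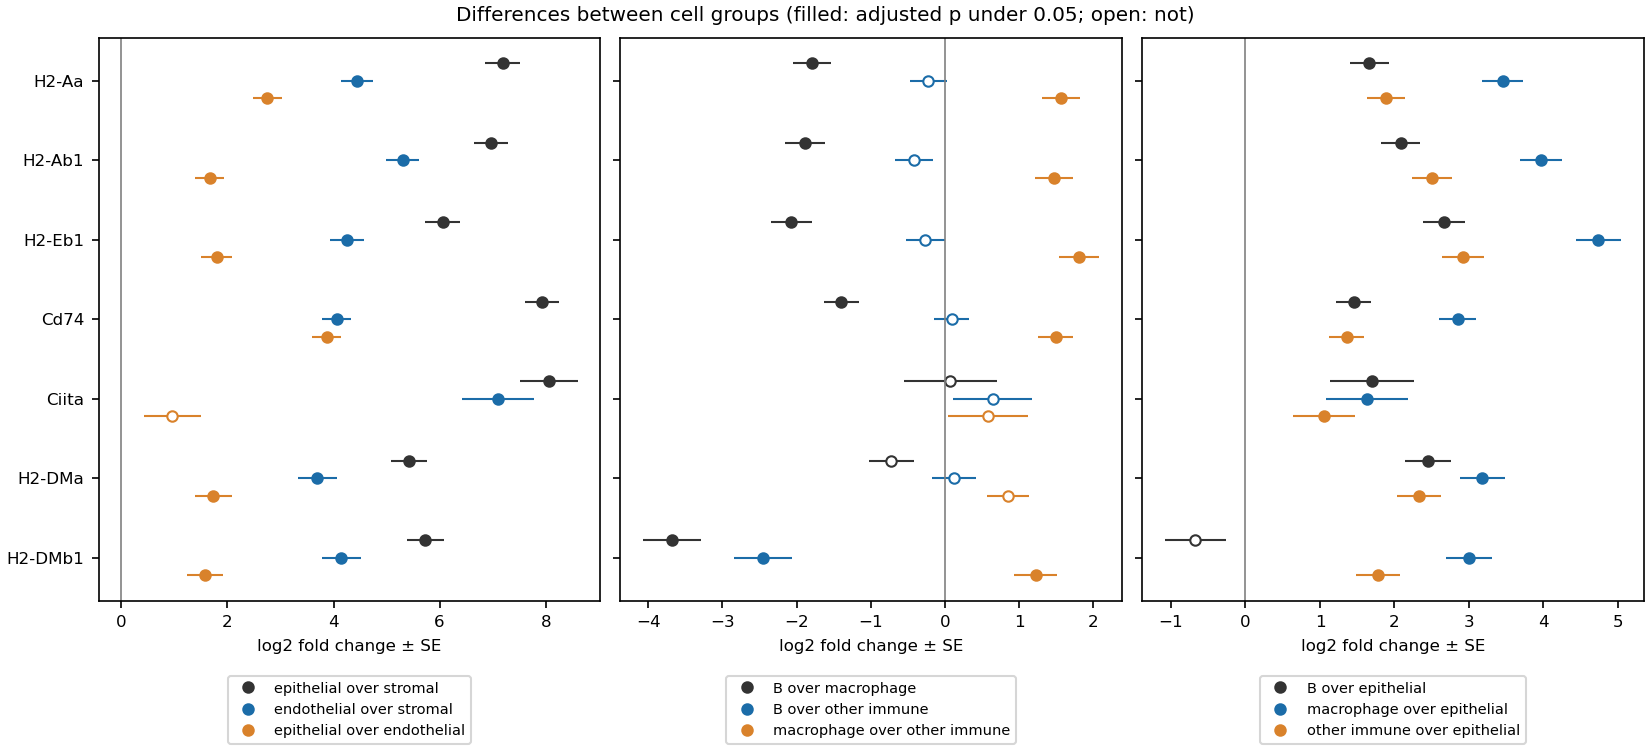
Log2 fold change (x axis, ± SE) of each gene in the 9 comparisons of cell groups, filled where the adjusted p was under 0.05. All epithelial and endothelial points lie right of 0 against stromal cells, and in the middle panel H2-DMb1 lies far left for B cells over macrophages (-3.68).

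Finer groups split both parenchymal and immune cells, by rules on marker UMIs, and were described without a test. General capillary cells (Gpihbp1 and Plvap) had more class II RNA than aerocytes (Car4 and Ednrb): Cd74 had 687 and 434 CPM in their 42 and 220 cells, against 32.5 and 85.4 CPM in 11 and 31 aerocytes. H2-Ab1 was found in 23 of 42 and 114 of 220 general capillary cells. In aerocytes it was found in 0 of 11 cells, for which 3 cells would be a share of 27.3%, and in 2 of 31 cells. That limit is on cells with a UMI at this depth, not on cells expressing the gene. Median depths of the capillary cells were 1875.5 and 3760 UMIs, and those of the aerocytes 2498 and 4384, so the group with fewer class II UMIs was the deeper one. Ciita was listed at 0 in aerocytes of both libraries, where 3 UMIs would have given 97.5 and 19.7 CPM, above the 11.6 and 16.5 CPM of general capillary cells, so a difference in Ciita was not detectable at this depth.

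**Figure D3:**
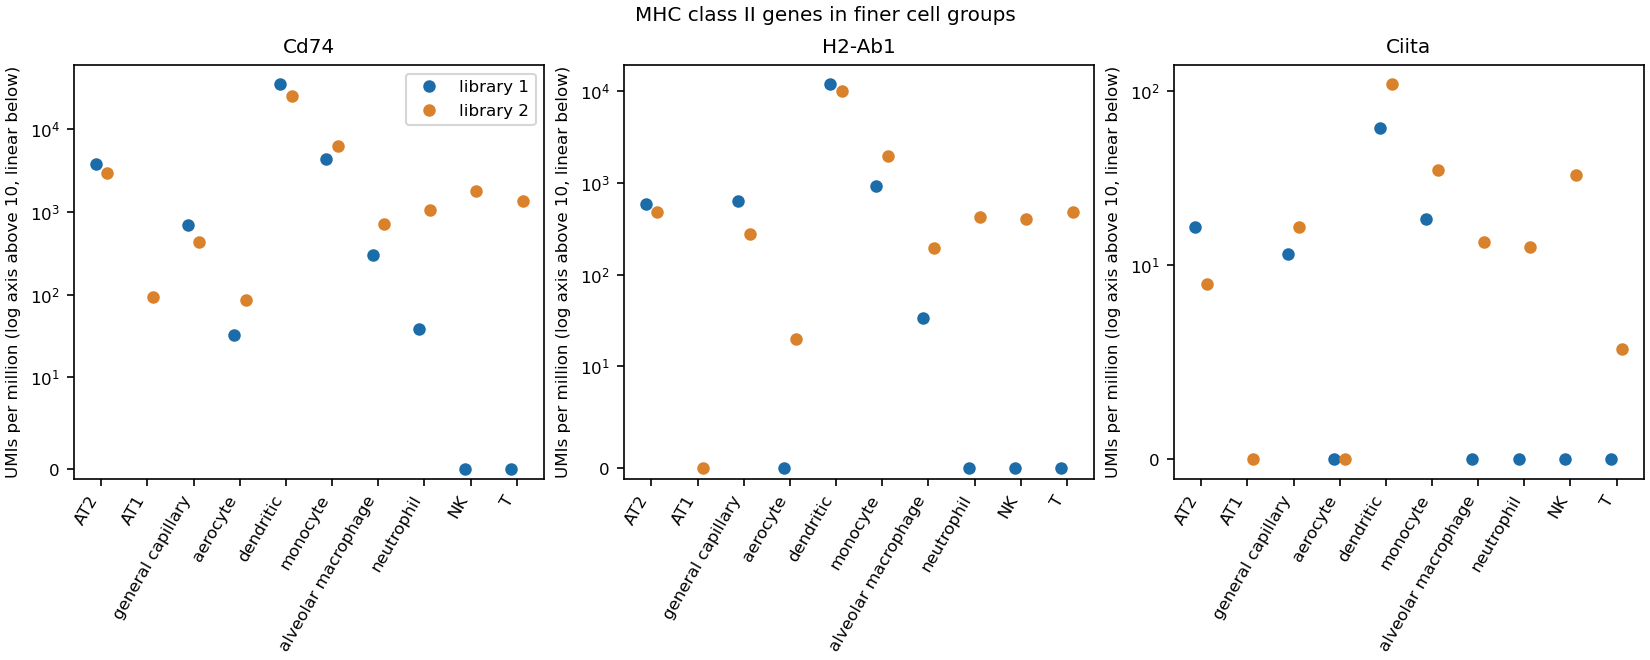
Cd74, H2-Ab1 and Ciita in finer groups, in CPM (log axis above 10, linear below), 1 point per library. Dendritic cells lie highest in all panels (Cd74 34390 and 25066), and for Cd74 the T, NK and neutrophil points of library 2 rest on 1 cell each (469 of 474, 161 of 163 and 78 of 83 UMIs).

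Among immune cells, macrophages were higher than B cells for 5 of the 7 members (5.96% of all genes were called lower in B cells and 3.02% higher), with a median log2 fold change of the members of -1.79 beside -0.01 over all genes. H2-Eb1 had 3558 and 3065 CPM in B cells and 16752 and 8893 CPM in macrophages, a log2 fold change of -2.07 ± 0.28 (edgeR adjusted p = 1.9e-07). Cd74 differed less, at -1.40 ± 0.24. Ciita did not pass, at 43.2 and 73.1 CPM in B cells and 53.2 and 55.9 CPM in macrophages (log2 fold change 0.07 ± 0.63), on 3 and 15 UMIs against 9 and 8. H2-DMa did not pass either, at 562 and 555 CPM against 1016 and 657 CPM (log2 fold change -0.73 ± 0.30, edgeR adjusted p = 0.15).

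H2-DMb1 was the member that differed most between B cells and macrophages. It had 72.0 and 73.1 CPM in B cells (5 and 15 UMIs) and 1200 and 636 CPM in macrophages, 12.8-fold lower in B cells (log2 fold change -3.68 ± 0.39, edgeR adjusted p = 1.1e-09). It was the 1 member that differed between B and other immune cells, where 2.15% of all genes were called higher in B cells and 7.45% lower (log2 fold change -2.46 ± 0.39, edgeR adjusted p = 9.5e-06). Without the dendritic cells of the latter group that call was lost (-0.86, edgeR adjusted p = 0.24). Between B and epithelial cells it was the 1 member that did not pass, at a log2 fold change of -0.67 ± 0.41. The other 6 were higher in B cells (11.3% of all genes called higher and 16.7% lower), Cd74 by 2.73-fold and H2-Eb1 by 6.33-fold. For Ciita that call (edgeR adjusted p = 0.019) was lost with no filter on low counts (0.052) and with no UMI of another gate allowed (0.13).

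The paralog H2-DMb2 showed the opposite order. It had 490 and 424 CPM in B cells (34 and 87 UMIs), 41.4 and 6.99 CPM in macrophages (7 and 1 UMIs), 1.27 and 2.20 CPM in epithelial cells and no UMI in endothelial cells, where 3 UMIs would have given 25.1 and 1.62 CPM. B cells were higher than macrophages by a log2 fold change of 3.94 ± 0.51 (edgeR adjusted p = 1.5e-07). B cells held 6.80 and 5.80 H2-DMb2 UMIs per H2-DMb1 UMI, dendritic cells 0.122 and 0.269, and macrophages 0.0345 and 0.0110. H2-DMa, the common partner chain, was at 562 and 555 CPM in B cells. H2-DMb1 and H2-DMb2 are near-identical neighbours, and how reads that fit both were treated is not given in the sources used here, so the split between them is uncertain.

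Other loci of the class II region were also highest in B cells. H2-Oa and H2-Ob encode H2-DO, the inhibitor of H2-DM. H2-Oa had 331 and 190 CPM in B cells, 149 and 148 CPM in dendritic cells and 5.91 and 6.99 CPM in macrophages. H2-Ob had 331 CPM in the B cells of both libraries, 47.4 and 102 CPM in dendritic cells and 29.5 and 14.0 CPM in macrophages. Neither gene had a UMI in epithelial cells, where 3 UMIs would have given 0.347 and 2.20 CPM. H2-Eb2 had 72.0 and 48.7 CPM in B cells and no UMI in macrophages. H2-DMb2, H2-Oa and H2-Ob were all called higher in B cells than in macrophages, other immune cells and epithelial cells. H2-Eb2 was called higher there too, on 5 and 10 B cell UMIs. It had 0 and 7.51 CPM in other immune cells and 0.462 and 0.732 CPM in epithelial cells. It therefore passed the filter on low counts through B cells alone, and its calls add no support of their own. Of all genes tested, 3.02%, 2.15% and 11.3% were called higher in B cells in these comparisons. No row for H2-Ea was used here.

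**Figure D4:**
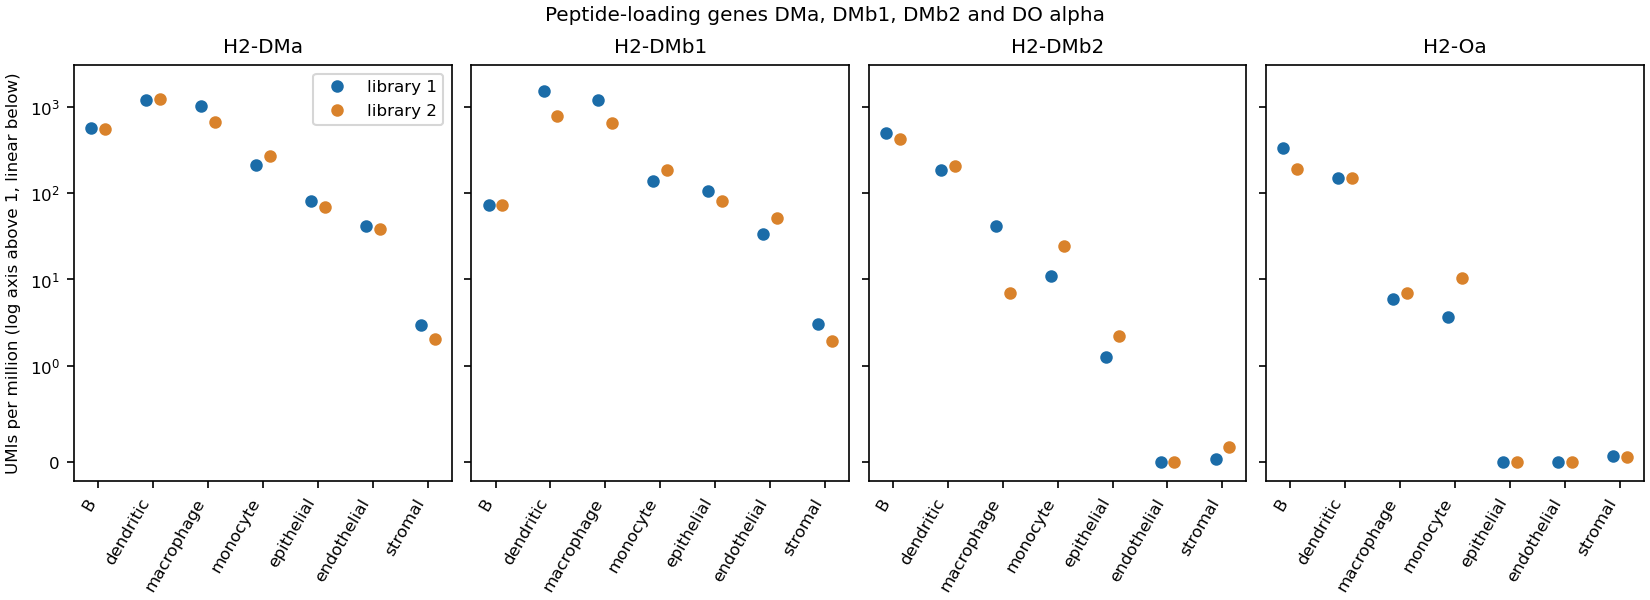
H2-DMa, H2-DMb1, H2-DMb2 and H2-Oa in CPM (log axis above 1, linear below), 1 point per library. H2-DMb1 is low in B cells (72.0 and 73.1) and high in dendritic cells (1503 and 769) and macrophages (1200 and 636), and H2-DMb2 is highest in B cells (490 and 424).

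Dendritic cells, marked by Flt3, Zbtb46, Xcr1, Clec9a and Cd209a, held most of the class II RNA of the other immune group. Of its 195 and 251 cells, 25 and 45 were dendritic, and these held 73.0% and 77.5% of its Cd74 UMIs and 78.2% and 80.5% of its H2-Ab1 UMIs. Their Cd74 level of 34390 and 25066 CPM lay beside the 34833 and 23862 CPM of macrophages, with overlapping libraries. Ciita had 60.9 and 109 CPM in dendritic cells. Monocytes (73 and 53 cells) had 4301 and 6215 CPM of Cd74, and alveolar macrophages (6 and 14 cells) 300.4 and 716 CPM. Class II RNA was uneven over the monocytes. H2-Ab1 was found in 21 of 73 and 19 of 53 of them, and 1 cell held 31.6% and 27.0% of its UMIs. For H2-Aa, H2-Ab1, H2-Eb1 and Cd74 summed, 34.2% and 26.4% of monocytes were at 0. In library 1 the alveolar macrophage value rests on 9 UMIs, 8 of them in 1 cell, and is 40.5 CPM without that cell.

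Against the mixed other immune group, macrophages were higher for 5 of 7 members, with Ciita and H2-DMa not passing (H2-DMa adjusted p = 0.073 with edgeR and 0.017 with DESeq2). H2-DMb1, one of the 5, lost its call without the library block (log2 fold change 1.25, edgeR adjusted p = 0.12). Of all genes, 2.6% were called higher in macrophages and 3.29% lower. Higher calls were 44.1% of all calls with edgeR and 65.9% with DESeq2, and for B over other immune cells 22.4% and 36.7%. The median log2 fold change of the members was 1.47, beside -0.25 over all genes. Against epithelial cells, all 7 members were higher in other immune cells (22.7% of genes called higher and 22% lower; Ciita had an adjusted p = 0.035 with edgeR and 0.15 with DESeq2) and all 7 in macrophages (12.7% higher and 14.4% lower). Macrophages exceeded epithelial cells by 7.20-fold for Cd74 and 26.6-fold for H2-Eb1. With the dendritic cells left out, a setting chosen after seeing the data, 2 of 7 members remained higher in other immune than in epithelial cells, H2-Eb1 and H2-DMa. Of all 10331 genes tested there, 2207 were called higher and 2219 lower, so 2 of 7 lay near the share over all genes. Cd74 had a log2 fold change of -0.31 (edgeR adjusted p = 0.33). In the same setting 5 of 7 members were higher in B than in other immune cells: H2-Aa, H2-Ab1, H2-Eb1, Cd74 and H2-DMa. Of the 10331 genes, 244 were called higher in B cells and 707 lower.

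In the T, NK and neutrophil groups of library 2 nearly all Cd74 UMIs sat in single barcodes. In library 2, 1 of 69 T cells held 469 of the 474 Cd74 UMIs of that group, 1 of 22 NK cells held 161 of 163, and 1 of 29 neutrophils held 78 of 83. Without that cell the Cd74 levels were 14.9, 25.2 and 68.4 CPM in place of 1343, 1780 and 1058 CPM. In library 1, T and NK cells (10 and 4 cells) had no Cd74 UMI and 51 neutrophils had 3. H2-DMa was less concentrated, with a UMI in 13 of 69 T cells and 5 of 22 NK cells of library 2. Whether the barcodes rich in Cd74 held more than 1 cell was not tested.

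Cell by cell, the 4 abundant members (H2-Aa, H2-Ab1, H2-Eb1 and Cd74) were summed per 10000 UMIs. The medians were 54.7 and 38.9 in epithelial cells, with an interquartile range of 40.7 to 70.9 in library 1 and 24.7 to 58.3 in library 2. B cells had medians of 286 and 248 and no cell at 0, the lowest standing at 27.0 and 30.8. Macrophages had medians of 839 and 589, and 1 of 43 in library 1 was at 0. Endothelial cells had medians of 10.97 and 4.80, with 37.5% and 27.8% of cells at 0. Other immune cells were split: 57.4% and 49.4% were at 0, while 21.03% and 25.5% stood at 100 or more.

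**Figure D5:**
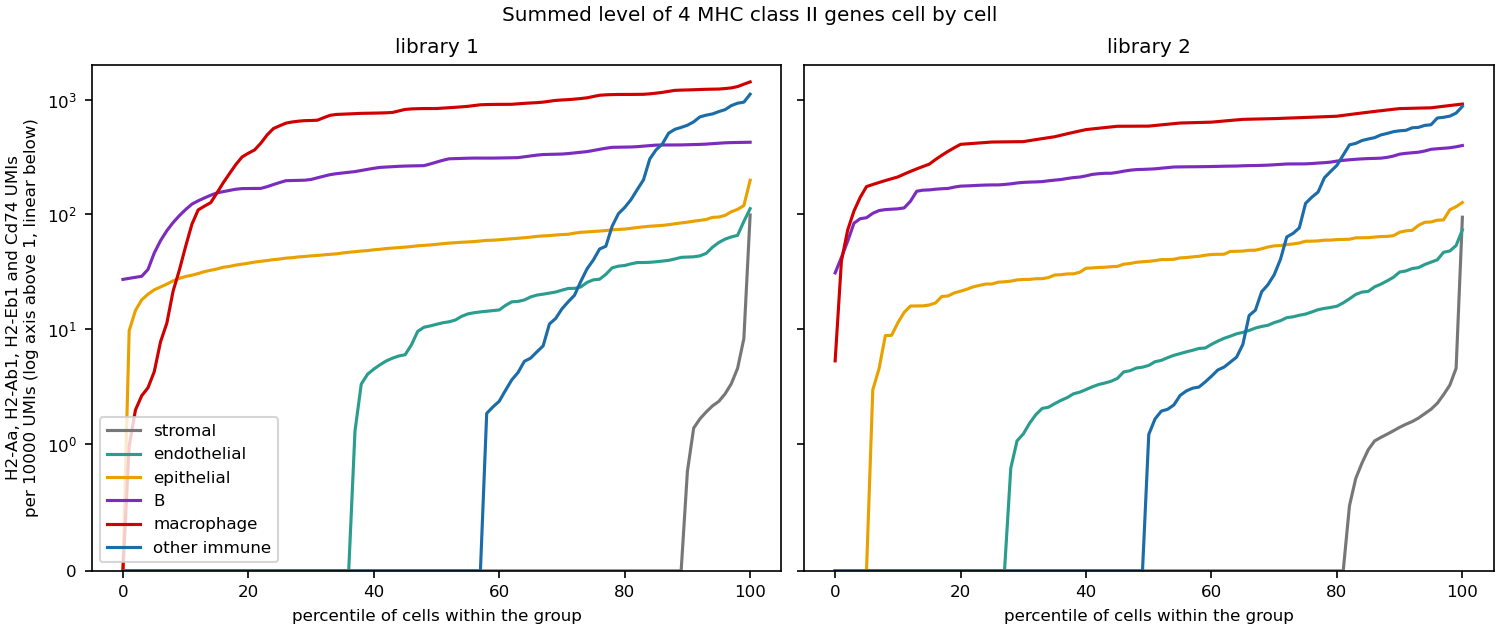
Summed H2-Aa, H2-Ab1, H2-Eb1 and Cd74 UMIs per 10000 UMIs of each cell (y axis, log above 1, linear below) against the percentile of cells in the group. Epithelial and B cells rise evenly (medians 54.7 and 286 in library 1), and other immune cells run from 0 to the range of macrophages (highest 1118 in library 1).

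MHC class I genes, whose products present cytosolic peptides to CD8+ T cells, had another order in the parenchyma. All 9 (H2-K1, H2-D1, B2m, Tap1, Tap2, Tapbp, Psmb8, Psmb9 and Nlrc5) were higher in endothelial than in stromal cells, and all 9 were lower in epithelial than in endothelial cells, at median log2 fold changes of 2.39 and -2.26. Of all genes tested, 13.1% were called higher in the first comparison and 18% lower in the second. B2m, the light chain, had 1606 and 1643 CPM in endothelial, 471 and 631 CPM in stromal and 105 and 180 CPM in epithelial cells. H2-D1 had 5739 and 2996 CPM in endothelial cells and 569 and 568 CPM in epithelial cells. H2-K1 had 2945 and 1711 CPM against 514 and 531 CPM. H2-K1 and H2-D1 are close paralogs, so their split is uncertain. Over epithelial against stromal cells 1 of the 9 was higher (H2-K1) and 2 were lower (B2m and Tap2), at a median of 0.32, while DESeq2 called 2 higher and 1 lower. Of all genes, edgeR called 19.2% higher and 22.9% lower there. Nlrc5, the class I counterpart of Ciita, had 25.1 and 10.8 CPM in endothelial and 0.231 and 0.732 CPM in epithelial cells. Over epithelial cells, 7 of 9 were higher in B cells, 6 in macrophages and 8 in other immune cells, beside 11.3%, 12.7% and 22.7% of all genes. Tapbp was lower in B than in other immune cells with edgeR and not with DESeq2. Between B cells and macrophages edgeR called 0 of 9 (1 at an unadjusted p under 0.05, 0 with DESeq2). Between macrophages and other immune cells it called 0 of 9 (0 and 0). Of all genes, 7.45% were lower in B than in other immune cells. In B cells 3.02% were higher and 5.96% lower than in macrophages. In macrophages 2.6% were higher and 3.29% lower than in other immune cells. With shares this small, 0 of 9 says little about class I genes.

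Few factors of the class II promoter complex passed the test in any comparison. Of Rfxap, Rfxank, Nfya, Nfyb, Nfyc and Creb1, the 6 of 7 that passed the filter on low counts, edgeR called 0 in epithelial and in endothelial over stromal cells, 0 had an unadjusted p under 0.05 and DESeq2 called 0. Of all genes, edgeR called 19.2% and 13.1% higher and 22.9% and 18.4% lower in these comparisons. Nfyb was lower in epithelial than in endothelial cells with edgeR (16.2 and 14.7 against 92.0 and 53.6 CPM) and not with DESeq2. Creb1 had 26.7 and 45.7 CPM in stromal and 22.4 and 27.1 CPM in epithelial cells. Rfxap had 27.2 and 35.6 CPM against 21.8 and 17.6 CPM. Nfya was higher in other immune than in epithelial cells. Of all genes, 18% and 22.7% were called in the directions of Nfyb and Nfya. In the remaining 5 comparisons edgeR and DESeq2 called 0 of 6, with 0 or 1 gene at an unadjusted p under 0.05. Of all genes, B cells had 3.02% higher and 5.96% lower than macrophages, 2.15% and 7.45% than other immune cells, and 11.3% and 16.7% than epithelial cells. Macrophages had 2.6% and 3.29% against other immune cells and 12.7% and 14.4% against epithelial cells. At the smaller of these shares, 0 of 6 says little about the factors.

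The endosomal proteases differed by cell type. Ctss, cathepsin S, which trims the invariant chain in presenting cells of bone marrow origin, had 2488 and 1916 CPM in macrophages, 634 and 346 CPM in B cells and no UMI in epithelial or endothelial cells. In epithelial cells 3 UMIs would have given 0.347 and 2.20 CPM. Ifi30, the lysosomal thiol reductase, was higher in epithelial than in stromal cells (141 and 228 against 24.6 and 21.2 CPM; log2 fold change 3.55 ± 0.35), and Ctss, Lgmn, Ctsl and Ctsb were lower. Stromal Ctss was itself at 0.732 and 0.597 CPM. Ctsb, cathepsin B, had 183 and 192 CPM in epithelial and 431 and 425 CPM in stromal cells. In endothelial over stromal cells 3 of the 6 were lower (Lgmn, Ctsl and Ctsb), and in epithelial over endothelial cells Ifi30 and Ctsb were higher and Ctsl lower. Over epithelial cells, 2 of 6 were higher and 3 lower in B cells, 4 higher in macrophages, and 4 higher and 1 lower in other immune cells. In B cells 5 of 6 were lower than in macrophages and 3 lower than in other immune cells, and 3 were higher in macrophages than in other immune cells. Of all genes, 5.96%, 7.45% and 2.6% were called so, and 18.4% were lower in endothelial than in stromal cells. Over epithelial cells, 11.3% of all genes were higher and 16.7% lower in B cells, and 12.7% were higher in macrophages. In other immune cells 22.7% were higher and 22% lower.

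Co-stimulatory molecules, which give T cells the signal needed beside the peptide, had few UMIs in epithelial cells. Cd86 had 1 UMI there in library 1 and none in library 2, beside 130 and 63.3 CPM in B cells and 94.5 and 189 CPM in macrophages. Cd40 had no epithelial UMI and 59.6 and 37.8 CPM in stromal cells, and was lower in epithelial and in endothelial than in stromal cells. The ubiquitin ligase March1, which removes class II from the surface, had no epithelial UMI and 43.2 and 166 CPM in B cells. Of the 6 genes with Cd80, Icosl and March8, 2 were lower in epithelial and in endothelial than in stromal cells (Cd40 and Icosl), and 1 was lower in epithelial than in endothelial cells (Cd40). Of all genes, 22.9%, 18.4% and 18% were called lower in these comparisons. Over epithelial cells, 3 were higher and 1 lower in B cells, 4 higher in macrophages, and 5 higher and 1 lower in other immune cells. The shares of all genes were 11.3% and 16.7% in B cells, 12.7% in macrophages, and 22.7% and 22% in other immune cells. One of the 5 was Cd80, at 43.9 and 20.5 CPM in other immune and 0.439 and 1.30 CPM in stromal cells. It passed the filter on low counts through other immune cells alone, so its call adds no support. Macrophages were higher than other immune cells for 1, beside 2.6% of all genes. Between B cells and macrophages and between B and other immune cells edgeR called 0 of 6. In these comparisons 1 and 2 had an unadjusted p under 0.05, and DESeq2 called 0 in both. Of all genes, 3.02% were higher and 5.96% lower in B cells than in macrophages, and 2.15% and 7.45% than in other immune cells. With shares this small, 0 of 6 says little about these genes.

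Interferon gamma, the cytokine that induces Ciita outside the professional cells, had UMIs in no other group than the other immune cells (Ifng 3.13 and 15.7 CPM). Of the 7 other genes of its pathway, 5 were lower in epithelial than in stromal cells and 6 lower than in endothelial cells, at median log2 fold changes of -1.32 and -1.69. Of all genes tested, 22.9% and 18% were called lower in these comparisons. Ifngr1, a receptor chain, had 392 and 737 CPM in stromal, 301 and 194 CPM in endothelial and 35.03 and 43.2 CPM in epithelial cells. Irf1, a target of the pathway, was higher in endothelial than in stromal cells, at 703 and 238 against 131 and 40.9 CPM. Jak1 had 184 and 280 CPM in endothelial and 59.6 and 60.1 CPM in epithelial cells. In endothelial over stromal cells 1 of 7 was higher and 2 were lower, beside 13.1% and 18.4% of all genes. Over epithelial cells 4 of 7 were higher in B cells, 3 in macrophages and 7 in other immune cells, beside 11.3%, 12.7% and 22.7% of all genes. B cells were lower than macrophages for 1 and than other immune cells for 2, and macrophages lower than other immune cells for 2. Of all genes, 5.96%, 7.45% and 3.29% were called lower in these comparisons.

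Over the 12 sums of 6 groups and 2 libraries, each member's log2(CPM + 1) profile was set beside the mean of the 7. Pearson r ran from 0.946 for H2-DMb1 to 0.999 for H2-Aa. That mean holds the member itself, which raises its r, so the closeness is in part built in. Non-members have no such gain. Of 9987 genes with at least 20 CPM in 1 sum, the non-members most like that mean were Lcp1 (r = 0.971), an actin-bundling protein of leukocytes, Ptpn18 (0.961), a phosphatase, Fam111a (0.953) and Dock8 (0.938), followed by Fam49b, Batf, Marcksl1, Ucp2, Ifi30 and Slc16a6 (0.905 to 0.890). Lcp1 had 0.850 and 0.614 CPM in stromal, 97.1 and 86.4 CPM in epithelial and 431 and 343 CPM in macrophages. For Ciita alone the nearest genes were H2-DMa (0.973), H2-Ab1 (0.967) and H2-Aa (0.965), then Ptpn18 (0.956), H2-Eb1 (0.953) and Cd74 (0.953), with Fam111a, Lcp1, Dock8 and Ucp2 after them. The sums share libraries, so these values are descriptions.

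In GENCODE vM21 (GRCm38) all 7 members were placed. H2-Ab1 (ENSMUSG00000073421) lies at chr17:34257689-34269419 on the plus strand, H2-Aa (ENSMUSG00000036594) at chr17:34282744-34287823 on the minus strand and H2-Eb1 (ENSMUSG00000060586) at chr17:34305867-34316674 on the plus strand. H2-DMa (ENSMUSG00000037649) and H2-DMb1 (ENSMUSG00000079547) lie on the plus strand at chr17:34119541-34139101 and chr17:34153072-34160230, with H2-DMb2 between them at chr17:34143307-34151555. Ciita (ENSMUSG00000022504) lies at chr16:10480059-10528418 and Cd74 (ENSMUSG00000024610) at chr18:60803848-60812652, both on the plus strand. The annotation places Gm20513 over H2-Eb1, Dexi over Ciita and Brd2, Gm20493 and CR974462.4 over H2-DMa on the opposite strand, and Mir5107 over Cd74 and CR974462.3 over H2-DMa on the same strand, and how strand was used in counting is not given in the sources used here.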

How the data were processed

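The authors deposited whole-number UMI counts per gene and barcode for 2 libraries, made per the labels with the Chromium 3' v3.1 kit and, per the submitters' processing notes, with Cell Ranger 5.0.1 and the build mm10. From these counts, cells were filtered, gated and summed per group and library, and CPM are UMIs per 1000000 UMIs of a sum. The 12 sums were fitted together in edgeR 4.0.16 (R 4.3.3; TMM, filterByExpr, quasi-likelihood F test, library as block, two-sided), with Benjamini-Hochberg adjustment over all 10866 genes tested and a call at 0.05. All 9 comparisons share sums and 1 estimate of the spread. Barcodes passing several gates were left out, which was the only step against doublets. Shares carry exact Clopper-Pearson intervals, and a share of 0 the limit of 3 counts. The genes named were the 7 members, every class II locus of the lists, up to 3 abundant genes of each other list, others named singly after their values were seen, and the 10 nearest profiles. The members, gene lists and tests were chosen with earlier results of these data known. Alternatives were DESeq2 1.42.0, no filter on low counts, no library block, stricter gates, other cell limits and leaving out each library. The fit was tested on simulated data. The summed B cell marker list is not reported here.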

Additional observations from a re-analysis of the deposited data

Results flagged for a closer look

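Class II RNA was also present in cells outside the comparisons, above what a count of 0 would allow. In cells that passed several gates, Cd74 had 5464 CPM in library 1 and 2980 CPM in library 2, and H2-Ab1 had 1412 and 959 CPM. These cells were deeper than those of any group, at medians of 10331 and 17378.5 UMIs. In cells that passed no gate, Cd74 had 716 and 544 CPM and H2-Ab1 146 and 181 CPM, at medians of 997 and 1279 UMIs. By gate, the 122 and 251 cells with stromal and immune transcripts had 13364 and 9191 CPM of Cd74, and the 86 and 931 with stromal and endothelial transcripts 213 and 214 CPM. What these barcodes held was not tested.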

How the results depend on the processing

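The replicate block was the library, since all 6 groups were measured within each library. Leaving the replicate block out moved the calls between macrophages and other immune cells from 641 to 378 genes over the whole table and ended 2 calls among the members, H2-DMb1 in macrophages over other immune cells (log2 fold change 1.25, adjusted p = 0.12) and Ciita in other immune over epithelial cells (1.10, adjusted p = 0.052). The number of members called in B over other immune cells rose from 1 to 2 with at least 1000 genes per cell and to 5 without dendritic cells, a setting added after seeing the data, in which the number in other immune over epithelial cells fell from 7 to 2. Directions turned in B over macrophage for Ciita (-0.017 with DESeq2, -0.17 with strict gates, meaning no UMI of another gate). In B over other immune cells, strict gates gave 0.14 for H2-Aa, 0.10 for H2-Ab1 and 0.12 for H2-Eb1. Cd74 gave -0.13 with no filter on low counts, -0.028 with gates at 5 UMIs and -0.44 with at least 1000 genes, and H2-DMa -0.10, -0.0077 and -0.30. Without dendritic cells that comparison gave 1.59 for H2-Aa, 1.49 for H2-Ab1 and 1.63 for H2-Eb1, and other immune over epithelial cells gave -0.31 for Cd74 and -0.058 for Ciita. The cause of these turns was not tested. Ciita lost its call in B over epithelial cells with no filter (adjusted p = 0.052) and with strict gates (0.13), in macrophages over epithelial cells with no filter (0.052), and in other immune over epithelial cells with DESeq2 (0.15) and strict gates (0.30). H2-DMb1 became lower in B than in epithelial cells with at least 1000 genes (-1.52, adjusted p = 0.036). A limit of 5% mitochondrial UMIs changed none of the 63 member values in call or direction.

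With 1 library left there is no test, and the values carry a prior count that pulls low counts in. No called member changed sign. Ciita moved most, to between 5.58 and 6.10 in epithelial over stromal cells and between 4.19 and 5.55 in endothelial over stromal cells, and H2-DMb1 in endothelial over stromal cells ranged from 2.87 to 4.38. Ciita in other immune over epithelial cells ranged from 0.13 without library 2 to 2.13 without library 1. The median log2 fold change over all genes lay between -0.36 and 0.05 with TMM, -0.18 and 0 with DESeq2 and -0.60 and 0.19 with unscaled CPM. Thinning moved 59 of 84 shares of cells by more than the spread of the libraries, so shares are limited by depth, as are Ciita in endothelial cells of library 1 (1 UMI) and all values of AT1 cells and aerocytes.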
